A study of Homo sapiens with 6 samples.

Results

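The CCR4-NOT genes described here are CNOT1, CNOT2, CNOT3, CNOT4, CNOT6, CNOT6L, CNOT7, CNOT8, CNOT10 and TOB1. They were chosen by gene symbol, as 10 of the 23228 genes in the count table, and all 10 were among the 14504 genes with enough reads to be tested. RNA was sequenced from U2OS cells, a human osteosarcoma line, 48 hours after RNAiMAX lipid transfection with siRNAs against ALKBH5 (3 libraries) or with scrambled siRNA (3 libraries). Libraries were stranded, poly(A)-selected and read as single reads of 50 bases. ALKBH5 is a demethylase that removes N6-methyladenosine (m6A) from RNA. Both groups were the same line given the same transfection reagent, so the control cells also carry an siRNA. These data hold no second, separately tested siRNA and no rescue, so changes due to the loss of ALKBH5 cannot be told apart from off-target ones.

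CCR4-NOT shortens the poly(A) tails of messenger RNA in the cytoplasm, a step that usually comes before decapping and decay. CNOT1 is the scaffold. One nuclease of the DEDD family (CNOT7 or its paralogue CNOT8) docks on CNOT1, and one nuclease of the EEP family (CNOT6 or its paralogue CNOT6L) docks on the DEDD nuclease, so that each complex carries 1 of each pair. YTHDF2, a reader of m6A, brings the complex to methylated RNA by binding CNOT1, and TOB1, a protein of the BTG/TOB family, links the DEDD nucleases to the poly(A)-binding protein PABPC1.

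The genes of the complex did not move together. In the knockdown libraries CNOT6 rose 3.16-fold, CNOT1 1.51-fold, TOB1 1.28-fold and CNOT7 1.19-fold. CNOT8 fell 2.10-fold, CNOT3 1.46-fold, CNOT6L 1.41-fold, CNOT4 1.33-fold and CNOT2 1.24-fold. The change of CNOT10 was not detectable. Of the 10 genes 4 were called higher and 5 lower, which is 9 called (adjusted p under 0.05 with edgeR's quasi-likelihood test over all tested genes). Over all tested genes 61.6% were called, 30.8% higher and 30.8% lower, so most genes of any kind were called in this comparison. The median absolute log2 fold change was 0.45 for the 10 genes and 0.46 for all tested genes. Values are CPM, reads in a gene as a proportion of all reads in genes, scaled between libraries with TMM factors.

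Reads in genes numbered 19748583 to 19919797 in the knockdown libraries and 18817181 to 23410007 in the scrambled libraries. ALKBH5 itself averaged 17.1 ± 2.06 CPM in the knockdown and 143 ± 4.92 CPM in the scrambled libraries (SD, n = 3 each), 8.35-fold lower (adjusted p = 1.6e-09 by edgeR). Uniquely placed reads that overlapped no counted feature were 17.9% ± 0.66 in the knockdown and 15.3% ± 0.23 in the scrambled libraries. The feature and strand settings of the counting are not given, so such reads may still lie within genes. The part of this shift in the results was not tested. Of the 6 markers of mesenchymal and bone cells, 2 were called higher and 3 lower. COL1A1 averaged 2017 ± 131 CPM in the knockdown and 1526 ± 38.3 CPM in the scrambled libraries, and RUNX2 42.0 ± 11.9 and 25.3 ± 4.23 CPM. VIM averaged 1478 ± 127 CPM in the knockdown and 1936 ± 30.8 CPM in the scrambled libraries, and SPARC 1428 ± 275 and 2030 ± 78.1 CPM. ALPL stood at 2.49 ± 0.592 and 3.97 ± 0.523 CPM. COL1A2, not called, was low, at 1.12 ± 0.459 CPM in the knockdown and 4.44 ± 4.62 CPM in the scrambled libraries. Summed over 6 leukocyte markers, the level was 91.5 to 195 CPM in the knockdown and 19.5 to 25.5 CPM in the scrambled libraries. LCP1 was the largest term in every library (135 ± 51.5 and 18.2 ± 1.90 CPM), while PTPRC was called lower (0.619 ± 0.262 and 1.31 ± 0.39 CPM) and CD3E had 0 reads in every library. The sums were 75.3 to 83.6 and 48.8 to 52.5 CPM for 6 epithelial markers, and 2.36 to 3.58 and 6.85 to 9.61 CPM for 5 endothelial markers. Of the epithelial markers 2 were called higher and 2 lower, with CLDN4 at 71.8 ± 5.65 CPM in the knockdown and 34.2 ± 2.36 CPM in the scrambled libraries, and KRT14 at 0.362 ± 0.286 and 8.34 ± 1.88 CPM. The markers named here were picked after their values were seen, and whether these shifts have a part in the results below was not tested. In bulk RNA, fewer cells of a type and less RNA per cell cannot be told apart.

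Sequences around the start sites of CNOT6, CNOT6L and CNOT8 are shown because these genes carry the largest change and the paralogue contrasts described next. They come from RefSeq (GRCh38.p14), a later build than the hg19 of the counts, and span 300 bases around an annotated start, 5′ to 3′ on the gene's strand. Windows were matched for 8 of the 10 genes. CNOT6 has 1 window. CNOT6L and CNOT8 have 3 each, and the most upstream one is shown. Gene counts do not tell which start is used. Capitals mark GC boxes (GGGCGG, either strand) and CCAAT boxes (CCAAT, either strand) and no box shown overlaps another.
CNOT6, chr5:180494129-180494428, plus strand: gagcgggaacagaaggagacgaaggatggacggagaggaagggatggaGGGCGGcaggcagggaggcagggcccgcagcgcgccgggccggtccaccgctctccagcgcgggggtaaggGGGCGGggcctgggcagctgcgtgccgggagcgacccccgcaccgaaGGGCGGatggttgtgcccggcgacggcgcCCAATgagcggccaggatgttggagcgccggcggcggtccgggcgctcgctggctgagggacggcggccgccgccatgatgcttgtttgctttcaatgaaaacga
CNOT6L, chr4:77820220-77820519, minus strand: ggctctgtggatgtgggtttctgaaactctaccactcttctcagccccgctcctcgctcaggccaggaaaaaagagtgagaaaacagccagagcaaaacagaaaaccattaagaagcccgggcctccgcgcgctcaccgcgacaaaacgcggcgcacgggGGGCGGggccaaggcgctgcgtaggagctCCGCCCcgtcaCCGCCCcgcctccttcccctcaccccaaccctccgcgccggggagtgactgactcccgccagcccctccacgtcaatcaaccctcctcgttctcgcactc
CNOT8, chr5:154857999-154858298, plus strand: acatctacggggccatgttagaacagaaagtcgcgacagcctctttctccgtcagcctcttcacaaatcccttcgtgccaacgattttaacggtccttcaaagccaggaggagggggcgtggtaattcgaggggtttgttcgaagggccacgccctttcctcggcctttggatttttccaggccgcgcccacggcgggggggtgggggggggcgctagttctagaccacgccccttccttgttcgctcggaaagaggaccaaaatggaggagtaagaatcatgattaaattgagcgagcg
The CNOT6 window held 3 GC boxes and 1 CCAAT box. That of CNOT6L held 3 GC boxes and 0 CCAAT boxes, and that of CNOT8 held 0 of either. The other CNOT6L windows held 4 and 2 GC boxes. The other CNOT8 windows, which overlap, held 1 GC box, the same in both. GC boxes are common, present in 45.0% of 35116 such windows, and CCAAT boxes were in 34.6%. These matches describe letters only.

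Among the nucleases, CNOT6 had the largest change of the 10 genes. CNOT6 encodes an EEP-family deadenylase, the human counterpart of yeast Ccr4. It stood at 144, 151 and 138 CPM in the knockdown libraries, against 46.1, 45.1 and 45.7 CPM in the scrambled libraries. Every knockdown library was far above every scrambled library, and the scrambled libraries differed little. On the log2 scale CNOT6 was higher by 1.66 (SE 0.08, adjusted p = 1.2e-08 by edgeR), and 7.0% of tested genes had a larger absolute change.

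CNOT6L, the paralogue of CNOT6, went the other way. Its level was 18.2, 15.5 and 16.5 CPM in the knockdown libraries and 25.1, 22.4 and 23.2 CPM in the scrambled libraries. The groups did not overlap, but at 295 to 602 reads per library CNOT6L was among the least deeply read of the 10 genes. Its log2 fold change was −0.49 (SE 0.11, adjusted p = 0.0020 by edgeR).

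The RNA balance of the EEP pair therefore differed between the groups. Protein and the make-up of the complex were not measured here. The ratio of CNOT6L reads to CNOT6 reads was 0.126, 0.103 and 0.120 in the knockdown libraries and 0.544, 0.496 and 0.508 in the scrambled libraries. Such a ratio does not depend on how libraries are scaled. It was 4.44-fold lower in the knockdown libraries, a difference of −2.15 on the log2 scale, with within-group SDs of 0.15 and 0.07. The exact 2-sided permutation test gave p = 0.1, the smallest that 3 libraries against 3 allow, and 0.1 after Benjamini-Hochberg adjustment over the 3 ratios tested. Per kilobase of merged exons (GENCODE 29), CNOT6 made up 92.3% ± 0.74 of the pair in the knockdown and 73.1% ± 0.95 in the scrambled libraries (SD, n = 3 each). The pair together summed to 24.4 ± 0.97 CPM per kilobase in the knockdown and 9.76 ± 0.22 in the scrambled libraries. This sum was looked at after the values of both genes were seen.

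**Figure D1:**
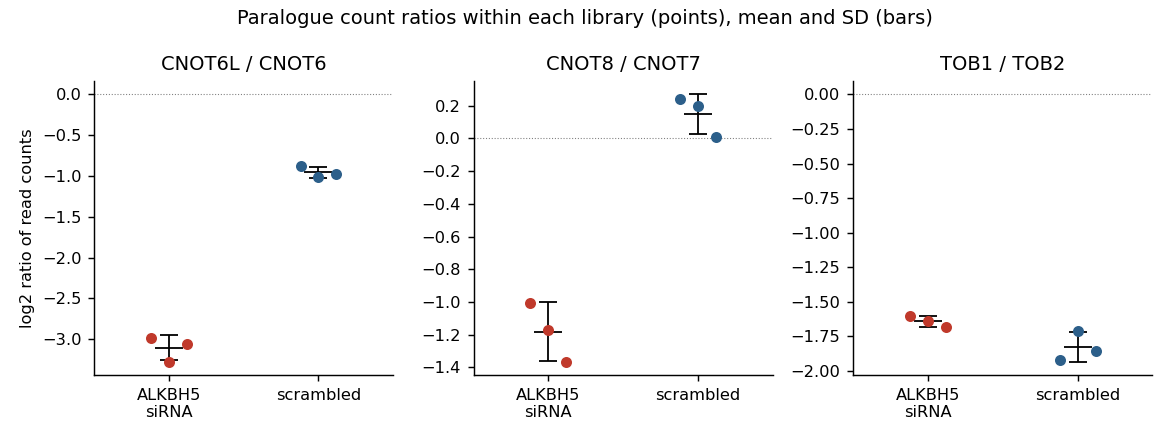
Log2 ratio of read counts (vertical axis) of CNOT6L to CNOT6, CNOT8 to CNOT7 and TOB1 to TOB2 in each library; points are the 3 ALKBH5 siRNA and 3 scrambled siRNA libraries, bars the mean and SD, and the vertical scale differs between panels. The first ratio averaged −3.11 and −0.96, the second −1.18 and 0.15, and the third −1.64 and −1.83.

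The DEDD nucleases also diverged, CNOT8 falling while CNOT7 rose slightly. CNOT8, a human counterpart of yeast Caf1, stood at 53.8, 55.6 and 44.8 CPM in the knockdown libraries and 112, 109 and 103 CPM in the scrambled libraries. Every knockdown library was below every scrambled library, with a log2 fold change of −1.07 (SE 0.10, adjusted p = 1.6e-06 by edgeR). Of tested genes 17.9% had a larger absolute change.

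CNOT7, the other Caf1 counterpart, stood at 108, 125 and 115 CPM in the knockdown libraries and 94.5, 95.2 and 102 CPM in the scrambled libraries. The groups lay close without overlapping, with a log2 fold change of 0.26 (SE 0.08, adjusted p = 0.017 by edgeR). Leaving out scrambled replicate 1 ended this call (log2 fold change 0.23, adjusted p = 0.065 by edgeR), as did leaving out scrambled replicate 2 (adjusted p = 0.066). The ratio of CNOT8 to CNOT7 reads was 0.498, 0.444 and 0.388 in the knockdown libraries and 1.18, 1.15 and 1.01 in the scrambled libraries. It was thus 2.51-fold lower in the knockdown libraries, −1.33 on the log2 scale, again with no overlap (exact 2-sided permutation p = 0.1, the smallest possible, and 0.1 adjusted).

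The paralogues shared no exact stretch of 50 bases, the read length. Near matches were not searched for, so whether every read was placed on the right paralogue was not tested. Over the longest coding transcripts of GENCODE 29, 0 of the 6254 windows of 50 bases in CNOT6, and 0 of the 2659 in CNOT8, occurred in a transcript of another gene. For CNOT6L 7.23% of windows matched the pseudogene CNOT6LP1, and for CNOT7 2.53% matched pseudogenes or the transcript AC104806.1. The other 6 genes had no shared window. Reads with more than 1 placement were set apart in the counting, so such windows may be missing from the counts of CNOT6L and CNOT7.

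**Figure D2:**
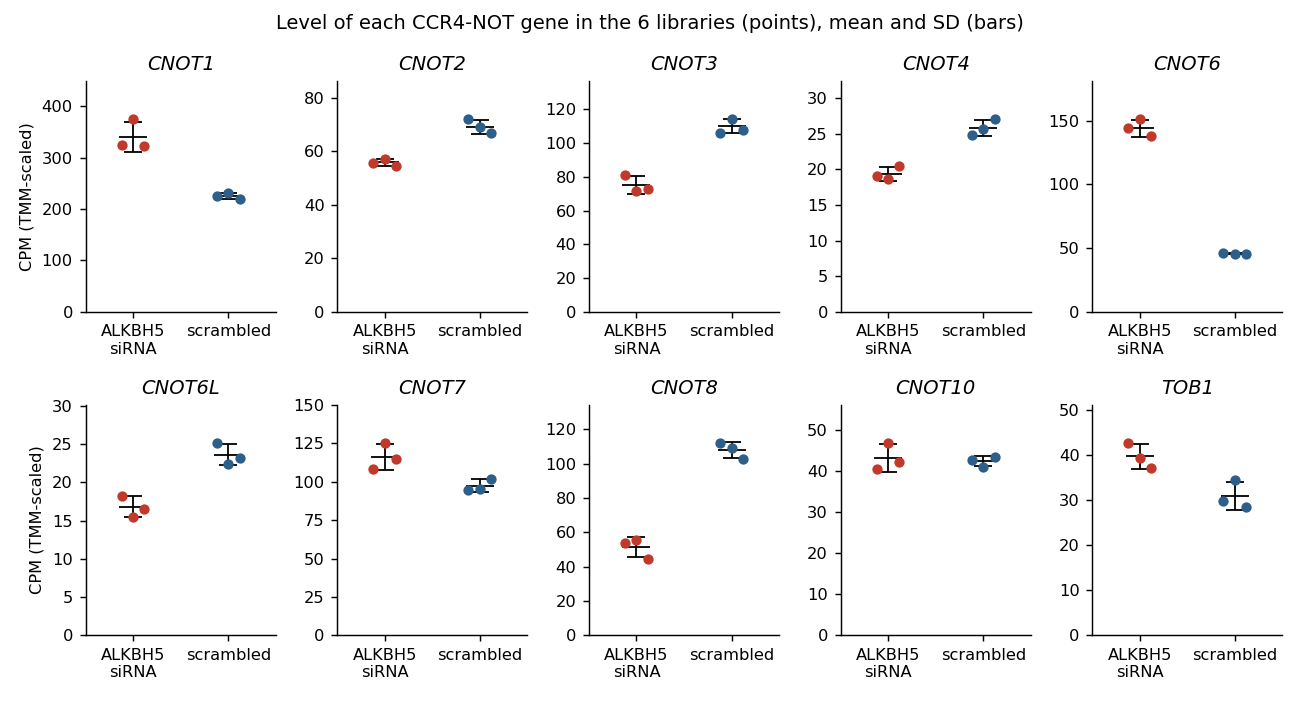
Level of each of the 10 genes in TMM-scaled CPM (vertical axis, from 0) in the 3 ALKBH5 siRNA and 3 scrambled siRNA libraries, shown as points with the mean and SD as bars; the vertical scale differs between panels. CNOT6 averages 144 ± 6.54 CPM with ALKBH5 siRNA and 45.6 ± 0.467 CPM with scrambled siRNA, and CNOT10 is the only gene whose groups overlap.

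CNOT1, the scaffold on which the other subunits assemble, rose. It stood at 325, 374 and 322 CPM in the knockdown libraries and 226, 231 and 219 CPM in the scrambled libraries, with no overlap and more scatter among the knockdown libraries. Its log2 fold change was 0.59 (SE 0.08, adjusted p = 4e-05 by edgeR).

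CNOT2 and CNOT3, which pair through their NOT boxes and bind the C-terminal part of CNOT1, both fell. CNOT3 stood at 81.2, 71.6 and 72.7 CPM in the knockdown libraries and 106, 114 and 108 CPM in the scrambled libraries. For CNOT2 the knockdown libraries held 55.6, 57.2 and 54.5 CPM and the scrambled libraries 71.8, 68.9 and 66.6 CPM. Neither gene's groups overlapped. Log2 fold changes were −0.55 for CNOT3 (SE 0.08, adjusted p = 0.00011) and −0.31 for CNOT2 (SE 0.08, adjusted p = 0.0056, both by edgeR).

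CNOT4, a RING-type ubiquitin ligase that is only loosely attached to the human complex, fell. Its level was 19.0, 18.6 and 20.5 CPM in the knockdown libraries and 24.8, 25.6 and 27.0 CPM in the scrambled libraries (log2 fold change −0.41, SE 0.10, adjusted p = 0.0036 by edgeR). The groups did not overlap, with 20.5 and 24.8 CPM in their nearest libraries, at a low level.

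CNOT10 binds the N-terminal part of CNOT1 together with CNOT11. The knockdown libraries held 40.4, 46.8 and 42.3 CPM and the scrambled libraries 42.7, 41.0 and 43.5 CPM. These ranges overlapped, and the log2 fold change of 0.03 had a 95% interval of −0.18 to 0.23 (adjusted p = 0.82 by edgeR). A change beyond that interval was not seen, and a smaller one was not detectable.

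TOB1, the antiproliferative adaptor, rose. It stood at 42.6, 39.3 and 37.0 CPM in the knockdown libraries and 29.7, 34.5 and 28.5 CPM in the scrambled libraries, where replicate 2 came nearest to the knockdown range. Its log2 fold change was 0.36 (SE 0.11, adjusted p = 0.011 by edgeR). With 1 library left out the call held but came near the threshold. The adjusted p by edgeR was 0.048 without scrambled replicate 3, 0.047 without scrambled replicate 1 and 0.042 without knockdown replicate 1. The ratio of TOB1 to TOB2 reads was 0.330, 0.321 and 0.311 in the knockdown libraries and 0.264, 0.305 and 0.276 in the scrambled libraries, a difference of 0.19 on the log2 scale (exact 2-sided permutation p = 0.1, the smallest possible, and 0.1 adjusted).

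**Figure D3:**
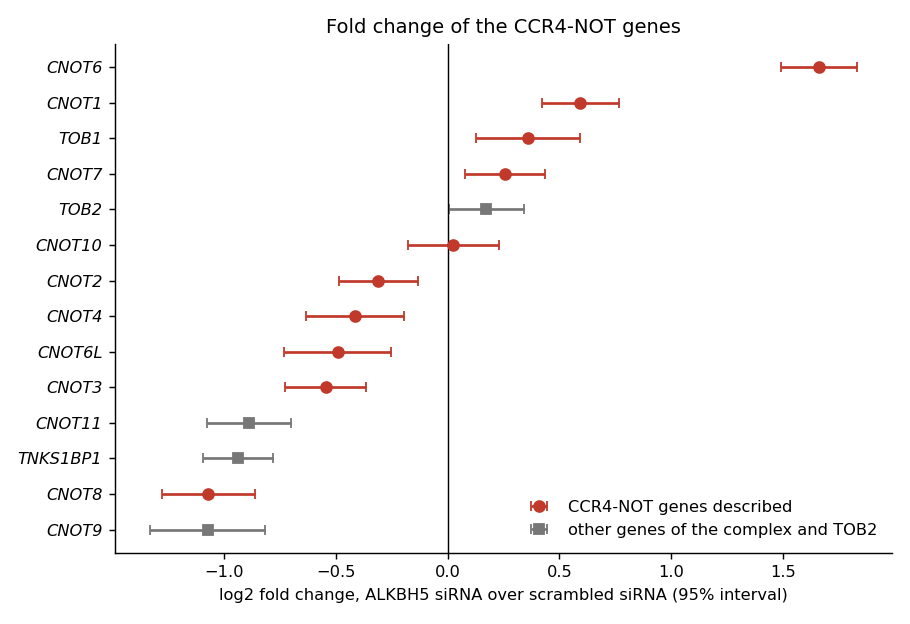
Log2 fold change of ALKBH5 siRNA over scrambled siRNA (horizontal axis) with its 95% interval from edgeR, for the 10 genes (circles) and for CNOT9, CNOT11, TNKS1BP1 and TOB2 (squares), sorted by value. CNOT6 at 1.66 stands apart at the top, and CNOT8 at −1.07 and CNOT9 at −1.07 at the bottom.

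Only CNOT6 and CNOT8 passed a test against a change of 1.5-fold (glmTreat, adjusted p = 1.5e-07 for CNOT6 and 0.00024 for CNOT8). That is 2 of the 10 genes, where 24.8% of all tested genes passed. Groups did not overlap in 9 of the 10 genes, where the background was 67.4% of tested genes.

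Levels were compared between genes per kilobase of merged exons. In the knockdown libraries CNOT1 was highest with 38.9 ± 3.3 CPM per kilobase, then CNOT6 with 22.5 ± 1.0, and CNOT6L was lowest with 1.87 ± 0.15. In the scrambled libraries CNOT8 was highest with 36.2 ± 1.5 CPM per kilobase, then CNOT1 with 25.8 ± 0.67, while CNOT6 stood at 7.14 ± 0.073 and CNOT6L was again lowest with 2.62 ± 0.15. CNOT6 was thus at rank 2 of 10 in the knockdown and at rank 8 in the scrambled libraries.

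Several neighbours in this order did not differ beyond their spread. In the knockdown libraries these were CNOT8 (17.3 ± 2.0 CPM per kilobase), TOB1 (15.8 ± 1.1), CNOT7 (14.9 ± 1.1) and CNOT10 (13.9 ± 1.1), above CNOT3 (11.6 ± 0.81), CNOT2 (7.92 ± 0.20) and CNOT4 (2.87 ± 0.14). In the scrambled libraries CNOT7 (12.5 ± 0.55) and TOB1 (12.3 ± 1.3) did not differ beyond their spread, and TOB1 reached into the range of CNOT10 (13.7 ± 0.40). These lay between CNOT3 (17.0 ± 0.67) and CNOT2 (9.81 ± 0.37), with CNOT4 at 3.83 ± 0.17. The order of CNOT7 rests on the length used. Its merged exons span 7809 bases, its longest coding transcript 6913 and its second-longest 1885. With the second-longest coding transcript as length, CNOT7 ranked 1 in both groups, at 61.7 ± 4.6 and 51.6 ± 2.3 CPM per kilobase, and CNOT6 ranked 4 and 8. Which DEDD nuclease was the more abundant can therefore not be told from these counts.

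Other features of the 10 genes varied as well. The pentamer GGACT, one form of the motif in which m6A is made, was counted in the longest coding transcript, with no measure of methylation in these data. It occurred 11 times in CNOT1, 9 in CNOT7 and 8 in CNOT6, at 1.30, 1.30 and 1.27 per kilobase. CNOT8 had 3 copies (1.11 per kilobase), CNOT10 2 (0.71) and CNOT4 2 (0.431). TOB1 had 1 (0.449 per kilobase), CNOT2 1 (0.21), CNOT6L 1 (0.113) and CNOT3 0. The median over 17402 genes was 0.931 per kilobase. Exons of CNOT4, CNOT6 and CNOT6L overlapped no other gene of GENCODE 29. Those of the other 7 overlapped genes on the opposite strand by 45 bases (CNOT10, with CNOT10-AS1) to 1219 bases (CNOT1, mostly with SETD6), and by 281 bases in TOB1, with TOB1-AS1. Whether strand was used in the counting is not given in the sources used here, so reads in those stretches are uncertain.

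Over the 6 libraries, the genes whose profile lay closest to that of CNOT6 were TPM4, a tropomyosin, RAP1A, a small GTPase, and CD164, a sialomucin. Their root mean square distances in centred log2 CPM were 0.037, 0.042 and 0.050. TPM4 averaged 694 ± 34.3 CPM in the knockdown and 213 ± 3.30 CPM in the scrambled libraries. These profiles are mainly the difference between the groups.

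CNOT9, CNOT11 and TNKS1BP1, further proteins of the complex, fell. CNOT9, a docking site for TNRC6 proteins, averaged 20.5 ± 2.33 CPM in the knockdown and 43.2 ± 4.34 CPM in the scrambled libraries (log2 fold change −1.07, adjusted p = 8.2e-06 by edgeR). CNOT11, the partner of CNOT10, averaged 54.0 ± 1.54 and 99.9 ± 7.96 CPM, and TNKS1BP1, a protein found with the complex, 96.5 ± 3.99 and 185 ± 2.35 CPM. In the list of other subunits and BTG/TOB genes 0 of 7 tested genes were higher and 4 lower, so that 57.1% were called, near the 61.6% of all tested genes, with a median log2 fold change of −0.41 against 0.01 over all tested genes. TOB2 was not called (124 ± 5.19 against 110 ± 5.51 CPM, adjusted p = 0.067 by edgeR), and BTG4 had too few reads to be tested. CNOT9 and CNOT11 stand in the table under the older symbols RQCD1 and C2orf29.

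Of the 8 other deadenylases 1 was higher and 5 lower (median log2 fold change −0.35), where 30.8% of all tested genes were called in each direction. The PAN2-PAN3 deadenylase, which trims long tails, was split. PAN3, its adaptor subunit, rose to 47.1 ± 3.38 CPM in the knockdown libraries, against 26 ± 1.07 CPM in the scrambled libraries, while PAN2, its nuclease, fell to 59.0 ± 9.69 CPM, against 96.6 ± 3.06 CPM. PARN fell 1.30-fold and TOE1, a nuclear deadenylase, 1.44-fold.

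Of 16 genes for proteins that bring CCR4-NOT to its targets, 10 rose and 5 fell (median log2 fold change 0.38). That is 93.8% called, against 61.6% of all tested genes. YTHDF2, the m6A reader, rose 1.30-fold. ZFP36L1, which binds AU-rich elements, averaged 628 ± 113 CPM in the knockdown and 257 ± 11.8 CPM in the scrambled libraries. PUM2, a Pumilio protein, fell to 165 ± 12.1 CPM in the knockdown libraries, against 328 ± 13.0 CPM in the scrambled libraries. TNRC6B, which joins Argonaute to the complex, fell 1.60-fold. TNRC6A and TNRC6C, paralogues of TNRC6B, rose 1.39-fold and 1.31-fold (adjusted p = 0.0015 and 0.027 by edgeR).

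In the decapping and 5′ decay list 3 of 12 genes were higher and 4 lower (median log2 fold change −0.05), which is 58.3% called and close to the 61.6% of all tested genes. DCP2, the decapping enzyme, rose 1.48-fold, while its cofactor genes EDC3 and DCP1A fell 2.51-fold and 1.78-fold. DDX6, a helicase that binds CNOT1, fell to 92.9 ± 6.39 CPM in the knockdown libraries, against 166 ± 9.45 CPM in the scrambled libraries. XRN1, the 5′ exonuclease, was not called (32.8 ± 2.42 against 34.0 ± 4.67 CPM, adjusted p = 0.71 by edgeR). For the RNA exosome and SKI complex 1 of 14 genes was higher and 9 lower (median log2 fold change −0.44). That is 71.4% called, against 61.6% of all tested genes, with EXOSC6, EXOSC4 and SKIV2L lower by 3.01-fold, 1.93-fold and 1.77-fold.

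Of 13 genes of poly(A) binding and tail addition, 2 rose and 6 fell (median log2 fold change −0.17). The 61.5% called match the 61.6% of all tested genes. PAPOLA, the main nuclear poly(A) polymerase, averaged 126 ± 11.7 CPM in the knockdown and 268 ± 6.60 CPM in the scrambled libraries. PAIP1, a partner of PABPC1, fell 2.47-fold, and TUT4, which adds uridines to short tails, 2.01-fold. PABPC1 was not called (1137 ± 25.4 against 1065 ± 33.1 CPM, adjusted p = 0.25 by edgeR).

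**Figure D4:**
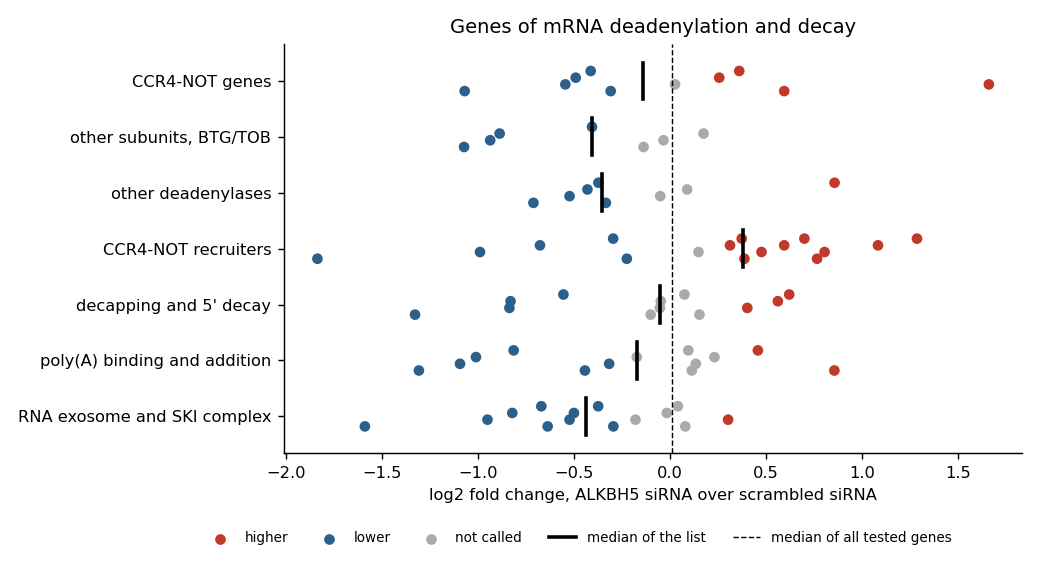
Log2 fold change of ALKBH5 siRNA over scrambled siRNA (horizontal axis) for each tested gene of the 10 CCR4-NOT genes and of 6 lists of mRNA decay genes; points are coloured by edgeR call, thick bars mark list medians, and the dashed line marks the median of all tested genes, 0.01. The recruiter list has its median at 0.38, and the other lists lie at or below −0.05.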

How the data were processed

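The 3 ALKBH5 siRNA and 3 scrambled siRNA libraries of U2OS cells were grouped by their labels. These do not say that replicates are separate cultures, so the spread behind each p-value may be technical. The authors deposited raw counts for each gene symbol, without normalisation. TopHat2, SAMtools, HTSeq, CASAVA 1.8.2 and the build hg19 are named in the submitters' processing notes. The sources used here give no settings, annotation or strand option. HTSeq's summary entries were left out, which leaves 18817181 to 23410007 reads in genes. Library sizes were the reads in the tested genes.

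Counts were filtered with filterByExpr, scaled with TMM and fitted with group as the single term in edgeR 4.0.16 (R 4.3.3, robust quasi-likelihood test, 2-sided). P-values were adjusted by Benjamini-Hochberg over the 14504 genes tested and called at 0.05. Standard errors are the log2 fold change divided by the square root of F. Within-library ratios were compared by exact permutation. The fit was tested on simulated data, where it recovered 71.6% of 1.5-fold and 97% of 2-fold changes, with 7 false calls among 186. That simulation gave every gene the same spread and changed far fewer genes than were called here, so recovery in the real data may differ. Exon lengths, transcripts and overlaps came from GENCODE 29, and older symbols were used for 8 genes.

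The members and lists were chosen with earlier results of these data known. TNRC6A and TNRC6C were named in addition to the genes below, after their values were seen. Named genes were the 10 members, ALKBH5, up to 3 called genes per list (lowest adjusted p first), a fixed set (YTHDF2, TOB2, CNOT9, CNOT11, PAN2, PAN3, PARN, DCP2, DDX6, XRN1, PABPC1) and the 3 genes closest in profile to the member with the smallest adjusted p. Alternatives were RLE scaling, library totals, no filter, a filter of 1 CPM in 3 libraries, DESeq2 1.42.0, limma-voom (limma 3.58.1), no robust moderation, glmTreat, a replicate block and each library left out.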

Additional observations from a re-analysis of the deposited data

Results flagged for a closer look

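Uniquely placed reads that overlapped no counted feature enter none of the gene tests. Their share of uniquely placed reads was 17.9% ± 0.66 in the knockdown and 15.3% ± 0.23 in the scrambled libraries (SD, n = 3 each). They are listed because this share was higher than in the control libraries.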

How the results depend on the processing

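Against a 1.5-fold change (glmTreat), 3601 genes were called in place of 8937, and 2 of the 10 CCR4-NOT genes in place of 9. CNOT1 (log2 fold change 0.59), CNOT2 (−0.31), CNOT3 (−0.55), CNOT4 (−0.41), CNOT6L (−0.49), CNOT7 (0.26) and TOB1 (0.36) then missed the threshold. Under that test, which called 24.8% of all tested genes, the calls were 3 of 7 other subunits and BTG/TOB genes, 1 of 8 other deadenylases, 4 of 16 recruiters, 3 of 12 decapping genes, 5 of 13 poly(A) genes and 3 of 14 exosome genes. CNOT10, never called, turned to −0.04 with library totals, and ranged from −0.033 (without knockdown replicate 2) to 0.075 with 1 library left out, with −0.003 without scrambled replicate 2. CNOT7 ranged from 0.202 to 0.31 with 1 library left out and lost its call in 2 of those 6 fits. XRN1 turned to 0.008 without knockdown replicate 3 and 0.018 without scrambled replicate 1, in a range down to −0.167. The cause of these changes was not tested. With 1 library left out, 8 or 9 of the 10 genes were called.

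CNOT6 kept its call and direction under all alternatives (log2 fold change 1.59 to 1.69, adjusted p up to 8.3e-07), as did CNOT8 (−1.14 to −0.98, adjusted p up to 0.00024). The 3 count ratios kept their direction with each library left out, within pairs and as differences of edgeR fold changes, the alternatives run for them. For TOB1 to TOB2 the exact permutation test gave p = 0.2 with any 1 knockdown library left out. The replicate numbers are not known to pair the libraries. Same-numbered libraries correlated at 0.331, 0.058 and 0.351 in their deviations, and differently numbered ones at -0.367 to 0.077. With the replicate block 9760 genes, in place of 8937, and 9 of the 10 CCR4-NOT genes were called. TOB2 was called with that block (adjusted p = 0.035). Within pairs, the exact permutation tests of the ratios gave p = 0.25, the smallest that 3 pairs allow. Levels per kilobase with the second-longest transcript, an alternative chosen after seeing the data, moved in 17 of 20 group means. At 295 to 602 reads per library, depth limits the precision for CNOT6L.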
